A study of Sus scrofa with 9 samples.

Results

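The glucocorticoid-responsive genes described here are FKBP5, TSC22D3, ZBTB16, DDIT4, SGK1, MAOA and the metallothionein MT1D in the spleen of growing Ningxiang pigs. They were picked by name: the deposited gene table carries protein descriptions and no symbols, and a gene was taken where its description began with 1 of 8 given names. Of 28095 assembled loci, 7 were found in this way, 1 for each name that matched. The receptor gene NR3C1 matched no description and is not analysed here. FKBP5, TSC22D3, ZBTB16, DDIT4, SGK1 and MAOA averaged 1 FPKM or more (fragments per kilobase of transcript, scaled to library size) and entered the main tests, and MT1D did not.

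The spleens came from Ningxiang pigs, an indigenous Chinese breed, of 3 ages, 30, 90 and 210 days after birth, and each age had 3 libraries. No treatment, hormone measurement or genetic change is named for any group. RNA was sequenced from whole tissue, and in bulk tissue fewer cells of a type and less RNA per cell cannot be told apart. The labels number the libraries but do not say that they came from separate animals, so p-values measure the spread between these libraries, and the sex of the pigs is not given.

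Glucocorticoid hormones, cortisol in pigs, enter cells and bind the glucocorticoid receptor, which waits in the cytoplasm in a complex with the chaperone HSP90. The bound receptor moves to the nucleus, binds DNA and raises the transcription of a set of genes found in many tissues, while it lowers many inflammatory genes. Lymphocytes and macrophages, the main cells of the spleen, carry the receptor and are well-known targets of these hormones. None of the genes described below responds to glucocorticoids alone.

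Counted reads per library ranged from 48.9 to 62.1 M, and the tests covered the 19264 loci that averaged 1 FPKM or more. Markers matched the tissue label: those of B cells and red pulp macrophages were present in all libraries, the second summing to 546 to 1077 FPKM, whereas the 4 adipocyte markers measured summed to 0.704 to 3.30 FPKM. Day 30 replicate 3 was the lowest of its age in FKBP5, TSC22D3 and ZBTB16, and results that rest on it are given with and without it. It stood apart from the other day 30 libraries in TSC22D3 and ZBTB16. In FKBP5 the day 30 libraries were spread, at 6.23, 4.28 and 3.34 FPKM. Changes are log2 ratios of the later age over the earlier age from edgeR's quasi-likelihood test on read counts, with standard errors (SE) and p-values adjusted by Benjamini-Hochberg over all tested loci, and a threshold of 0.05. The 3 comparisons share their libraries, so that a low day 90 enters both comparisons that use it. FPKM and these changes are scaled differently. On log2(FPKM + 1) the median of all tested loci moved by -0.148 at day 90 against day 30. It moved by 0.108 at day 210 against day 90. FPKM means and marker sums carry this shift. For SGK1 and DDIT4 at day 90 against day 30 the FPKM mean fell while the change was positive.

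DDIT4 was the only gene of the 6 to pass the threshold, being higher at day 210 than at day 30. FKBP5, ZBTB16 and TSC22D3 were lowest on average at day 90, with 1 low library at day 30, and MAOA was lowest at day 90 in all 3 of its libraries. SGK1 overlapped between all ages. Summed marker levels of other cell types also differed between ages: B cell markers summed to 67.8 to 86.7, 104 to 121 and 63.7 to 70.5 FPKM at days 30, 90 and 210. Neutrophil markers summed to 5.003 to 15.9, 0.970 to 3.56 and 5.18 to 10.9 FPKM, and erythroid markers to 80.5 to 224, 10.3 to 16.9 and 7.16 to 16.3 FPKM, in the same order of ages. Their part in the levels of the 6 genes was not tested. At day 210 against day 30, 1 of 6 genes passed, beside 6.24% of all tested loci. At day 90 against day 30, 0 of 6 passed, beside 6.08% of all loci. At day 210 against day 90, 0 of 6 passed, beside 0.535% of all loci.

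**Figure D1:**
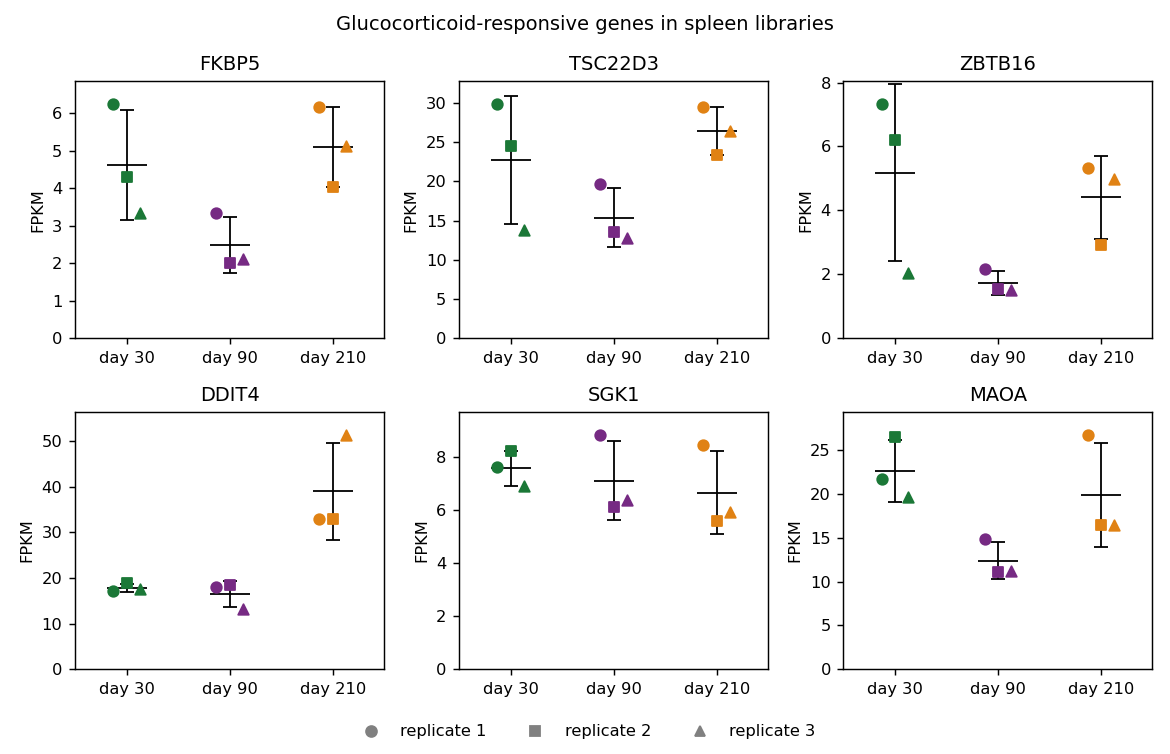
FPKM of the 6 tested genes (vertical axes, linear, from 0) in each library at days 30, 90 and 210, with marker shape for the replicate number and bars for the mean ± SD of 3 libraries. The 3 day 210 libraries of DDIT4 sit between 32.8 and 51.2 FPKM, above all others, and day 30 replicate 3 lies beside the day 90 libraries in TSC22D3 and ZBTB16.

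Without adjustment for the number of loci, 3 genes had p under 0.05 at day 90 against day 30, 5 at day 210 against day 90 and 1 at day 210 against day 30, while 23.1%, 14.1% and 23.7% of all loci did so in these comparisons. By limma on log2(FPKM + 1), 1 gene passed at day 90 against day 30 (MAOA) and 1 at day 210 against day 90 (DDIT4). By DESeq2, FKBP5, ZBTB16 and MAOA passed at day 90 against day 30, and FKBP5, ZBTB16 and DDIT4 at day 210 against day 90. Of all 19264 loci, limma called 1720 and 122 in these 2 comparisons, and DESeq2 called 2424 and 801. The median change of the 6 genes was -0.54, 0.78 and 0.01 at day 90 against day 30, day 210 against day 90 and day 210 against day 30, where the median over all tested loci was within 0.01 of 0 each time.

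Whether libraries of 2 ages overlapped was read on CPM, counts scaled to library size with TMM factors. All 3 day 210 libraries lay above all 3 day 90 libraries in FKBP5, TSC22D3, ZBTB16, DDIT4 and MAOA, which is 5 of 6 genes beside 9.91% of all loci. FKBP5, TSC22D3 and ZBTB16 followed each other closely over the libraries, so these are not 5 separate observations. At day 90 against day 30 the libraries did not overlap in MAOA alone, 1 of 6 genes lower at day 90, beside 16.7% of all loci. At day 210 against day 30 they did not overlap in DDIT4 alone, 1 of 6 genes higher at day 210, beside 12.4% of all loci.

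**Figure D2:**
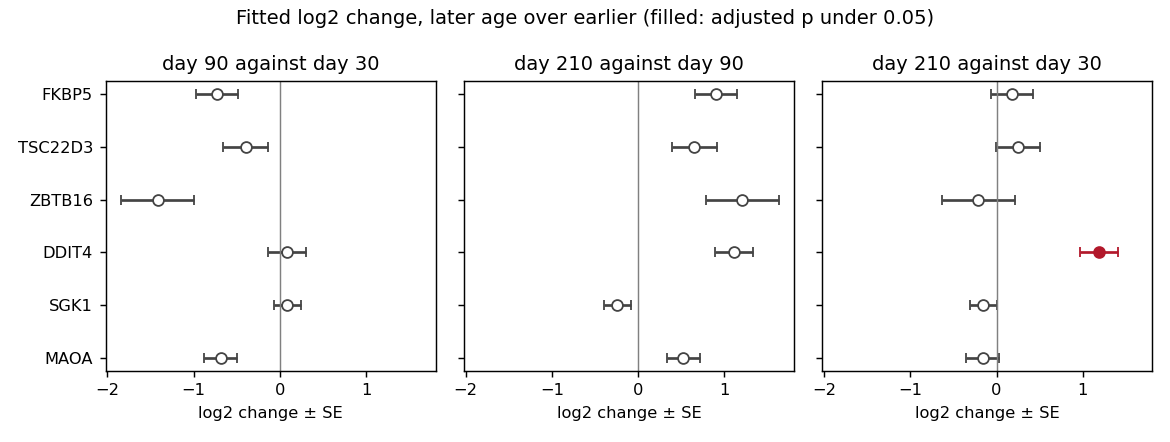
Fitted log2 change ± SE (horizontal axes) of the 6 genes in the 3 comparisons, later age over earlier, with a filled point where the adjusted p was under 0.05. The filled point is DDIT4 at day 210 against day 30, and FKBP5, TSC22D3, ZBTB16 and MAOA lie below 0 at day 90 against day 30 and above 0 at day 210 against day 90.

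FKBP5 encodes a peptidyl-prolyl isomerase of the HSP90 complex that lowers the hormone affinity of the receptor, a feedback step, and its gene is among the most widely used readouts of receptor activity. Its locus, MSTRG.11139, spans positions 120238258 to 120389807 of chromosome 7 on the plus strand, with 10 assembled transcripts. FKBP5 measured 6.23, 4.28 and 3.34 FPKM at day 30, 3.35, 2.003 and 2.12 FPKM at day 90, and 6.15, 4.02 and 5.12 FPKM at day 210. The day 90 libraries were the low ones, day 30 replicate 3 lay level with the highest of them, and the day 210 libraries lay within the day 30 range.

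The FKBP5 mean was 2.49 ± 0.747 FPKM at day 90 against 4.62 ± 1.47 FPKM at day 30 (SD, n = 3 each). The change was -0.73 ± 0.24 (SE; adjusted p = 0.114). At day 210 it averaged 5.10 ± 1.06 FPKM, and the change against day 90 was 0.90 ± 0.24 (adjusted p = 0.148). Against day 30 the day 210 change was 0.18 ± 0.24, with an adjusted p of 0.701. The day 90 change depended on which day 30 library was left out: it was -0.44 without replicate 1 (adjusted p = 0.326) and -0.94 without replicate 3 (adjusted p = 0.0399).

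TSC22D3 encodes the glucocorticoid-induced leucine zipper, a protein that binds and restrains NF-kappaB and AP-1 in lymphocytes and macrophages. It lies on the X chromosome at 90314541 to 90376801 on the minus strand (locus MSTRG.21524). TSC22D3 measured 29.8, 24.5 and 13.8 FPKM at day 30, 19.7, 13.6 and 12.8 FPKM at day 90, and 29.5, 23.4 and 26.4 FPKM at day 210. On FPKM day 30 replicate 3 was among the day 90 values, and the other day 30 libraries were in or near the day 210 range. On CPM day 30 replicate 3 was the lowest of all libraries, at 46.4 beside 58.9 to 67.6 at day 90.

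The mean of TSC22D3 was 15.3 ± 3.76 FPKM at day 90 against 22.7 ± 8.15 FPKM at day 30 (SD, n = 3 each). The change was -0.40 ± 0.26 (SE; adjusted p = 0.401), and it was -0.15 without day 30 replicate 1 (adjusted p = 0.824) and -0.68 without day 30 replicate 3 (adjusted p = 0.0295). At day 210 the mean was 26.4 ± 3.08 FPKM, with a change of 0.65 ± 0.26 against day 90 (adjusted p = 0.301) and of 0.25 ± 0.26 against day 30 (adjusted p = 0.597).

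ZBTB16 encodes a zinc finger transcription factor that is needed for the innate-like T lymphocyte programme and is strongly induced by glucocorticoids in many human cell types. Its locus, MSTRG.12941, spans 97564607 to 97777017 of chromosome 9 on the minus strand. ZBTB16 measured 7.32, 6.19 and 2.05 FPKM at day 30, 2.16, 1.53 and 1.502 FPKM at day 90, and 5.33, 2.91 and 4.98 FPKM at day 210. At day 30 it had the highest coefficient of variation of the 6 genes, 53.4%, and replicate 3 of that age was again within the day 90 range.

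For ZBTB16 the mean was 1.73 ± 0.371 FPKM at day 90 against 5.18 ± 2.77 FPKM at day 30 (SD, n = 3 each). The change was -1.42 ± 0.43 (SE; adjusted p = 0.0837), and it was -1.09 without day 30 replicate 1 (adjusted p = 0.238) and -1.81 without day 30 replicate 3 (adjusted p = 0.0103). At day 210 the mean was 4.41 ± 1.31 FPKM, with a change of 1.21 ± 0.43 against day 90 (adjusted p = 0.245) and of -0.21 ± 0.42 against day 30 (adjusted p = 0.805). Markers of NK and innate-like T cells, some of which use ZBTB16, summed to 21.8 to 23.4 FPKM at day 30, 24.3 to 30.4 FPKM at day 90 and 26.9 to 28.3 FPKM at day 210, with TRDC giving the largest part and none of the 5 at 0 in all libraries. Their part in the ZBTB16 level was not tested.

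Day 30 replicate 3 was singled out for its low FKBP5, TSC22D3 and ZBTB16 levels, so the calls made without it follow from that choice and are no test of their own. They are 3 of 6 genes, beside 3.64% of all loci lower at day 90 without it, and nothing is read from that share. On CPM this library was also the lowest of its age in SGK1, MAOA and DDIT4. Its summed marker levels lay within or close to the range of the other day 30 libraries for T cells (64.7 FPKM) and endothelium (40.2 FPKM), and were the highest of that age for B cells (86.7 FPKM) and the lowest for red pulp macrophages (795 FPKM). The part of these cell types in its low FKBP5, TSC22D3 and ZBTB16 levels was not tested.

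DDIT4 encodes a protein that acts through the TSC1-TSC2 complex to restrain the growth kinase mTOR, and besides glucocorticoids it responds to low oxygen, lack of nutrients and DNA damage. Its short locus, MSTRG.17954, lies at 72765573 to 72768724 of chromosome 14 on the plus strand. DDIT4 measured 17.2, 18.9 and 17.5 FPKM at day 30, 17.98, 18.3 and 13.1 FPKM at day 90, and 32.8, 32.9 and 51.2 FPKM at day 210. Days 30 and 90 overlapped, all day 210 libraries lay above both, and day 210 replicate 3 was the highest.

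DDIT4 rose to 39.0 ± 10.6 FPKM at day 210, against 17.9 ± 0.898 FPKM at day 30 (SD, n = 3 each). The change was 1.19 ± 0.22 on the log2 scale, a 2.28-fold rise (SE; edgeR quasi-likelihood adjusted p = 0.0195), and the test for any difference between the 3 ages gave an adjusted p of 0.018, a test passed by 1 of the 6 genes and by 7.64% of all loci. Without day 30 replicate 1 the adjusted p was 0.0671 and without day 30 replicate 2 it was 0.0564, with changes of 1.17 and 1.26. Against the day 90 mean of 16.5 ± 2.92 FPKM the day 210 change was 1.11 ± 0.22 (adjusted p = 0.0713). At day 90 against day 30 the change was 0.08 ± 0.22 (adjusted p = 0.863), and its sign turned with limma on log2 FPKM, to -0.12.

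SGK1 encodes a serine/threonine kinase that raises sodium transport in epithelia and takes part in T cell differentiation, and it was first known as a serum- and glucocorticoid-induced gene. Its locus, MSTRG.1447, spans 229834211 to 229962361 of chromosome 1 on the minus strand. SGK1 measured 7.62, 8.20 and 6.89 FPKM at day 30, 8.81, 6.12 and 6.36 FPKM at day 90, and 8.44, 5.59 and 5.91 FPKM at day 210. The ages overlapped in every comparison, and in each of the later ages replicate 1 was the high library.

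The SGK1 mean was 7.57 ± 0.657, 7.09 ± 1.49 and 6.65 ± 1.56 FPKM at days 30, 90 and 210 (SD, n = 3 each). Changes were 0.09 ± 0.15 at day 90 against day 30 (SE; adjusted p = 0.782), -0.24 ± 0.15 at day 210 against day 90 (adjusted p = 0.544) and -0.15 ± 0.15 at day 210 against day 30 (adjusted p = 0.589). A p that misses the threshold does not show that the ages had equal levels.

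MAOA encodes monoamine oxidase A, the mitochondrial enzyme that breaks down serotonin and noradrenaline, and its gene is induced by glucocorticoids in human cells. It lies on the X chromosome at 43458262 to 43534021 on the plus strand (locus MSTRG.21260). MAOA measured 21.7, 26.6 and 19.7 FPKM at day 30, 14.9, 11.1 and 11.2 FPKM at day 90, and 26.7, 16.5 and 16.4 FPKM at day 210. All day 90 libraries lay below all others, and at day 210 replicate 1 was far above replicates 2 and 3.

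The MAOA mean was 12.4 ± 2.14 FPKM at day 90 against 22.7 ± 3.52 FPKM at day 30 (SD, n = 3 each), with a change of -0.68 ± 0.19 (SE; adjusted p = 0.0674). It passed without day 210 replicate 1 (adjusted p = 0.0385) and with only days 30 and 90 in the fit (adjusted p = 0.045), while leaving out day 30 replicate 1 or 2 or any day 90 library gave an adjusted p of 0.139 to 0.210. At day 210 the mean was 19.9 ± 5.93 FPKM, with a change of 0.52 ± 0.19 against day 90 (adjusted p = 0.262; 0.31 without day 210 replicate 1) and of -0.16 ± 0.19 against day 30 (adjusted p = 0.648). Smooth muscle markers had a similar order of ages, at 282 to 382 FPKM at day 30, 141 to 170 FPKM at day 90 and 128 to 365 FPKM at day 210 with the highest value in replicate 1, and their part in the MAOA level was not tested.

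MT1D is a metallothionein, a small protein that binds zinc and copper, and metallothionein genes are induced by both metals and glucocorticoids. Its locus, at 153633028 to 153633823 of chromosome 6 on the minus strand, drew 54 reads over all 9 libraries. The sums were 34 reads at day 30, 13 at day 90 and 7 at day 210, and 3 libraries had none. At this depth no difference between the ages could be tested, and other metallothionein genes were not matched.

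On the FPKM scale, which takes length into account, the genes kept apart in 2 ranges. At day 30 TSC22D3, MAOA and DDIT4 averaged 17.9 to 22.7 FPKM, and SGK1, ZBTB16 and FKBP5 averaged 4.62 to 7.57 FPKM. At day 210 DDIT4 was the highest, at 39.0 FPKM, with TSC22D3 next at 26.4 FPKM. At day 30 TSC22D3 and MAOA both averaged 22.7 FPKM and did not differ beyond their SD, and at day 210 MAOA followed at 19.9 FPKM. FKBP5 had 19.5 times as many counted reads per FPKM as TSC22D3, so its FPKM rests on a much longer assembled length.

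FKBP5, TSC22D3 and ZBTB16 varied together from library to library. Over the 9 libraries FKBP5 and ZBTB16 had a Pearson r of 0.92 and a Spearman rho of 0.92 on log2 CPM (permutation p of r = 0.00201, adjusted over 15 pairs 0.0129). FKBP5 and TSC22D3 had r of 0.90 and rho of 0.92 (permutation p = 0.00174, adjusted 0.0129). TSC22D3 and ZBTB16 had r of 0.91 and rho of 0.90 (permutation p = 0.00258, adjusted 0.0129). Leaving out the 2 libraries farthest from the median gave r of 0.90 for both FKBP5 pairs and 0.93 for TSC22D3 with ZBTB16. Without day 30 replicate 3, r was 0.92 for FKBP5 with ZBTB16, 0.99 for FKBP5 with TSC22D3 and 0.94 for TSC22D3 with ZBTB16.

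Within ages the relation of these 3 genes did not pass after adjustment. After the mean of each age was taken away, r was 0.89 for FKBP5 with ZBTB16, 0.90 for FKBP5 with TSC22D3 and 0.97 for TSC22D3 with ZBTB16. The exact permutation p within ages was 0.0139, 0.0185 and 0.00926 in that order, and 0.0694 for each after adjustment over the 15 pairs. With 3 libraries per age the smallest p this permutation can give is 0.00463. A pair with that p by itself would not pass after adjustment over 15 pairs. MAOA followed ZBTB16 with r of 0.82 (permutation p adjusted 0.0423), but with a rho of 0.72 (adjusted 0.111) and an r of 0.62 within ages, so that this relation passed by r alone. DDIT4 had r of at most 0.56 with any other gene and -0.51 with SGK1. SGK1 and MAOA had r of 0.20 over the libraries and 0.96 within ages (adjusted 0.0694).

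**Figure D3:**
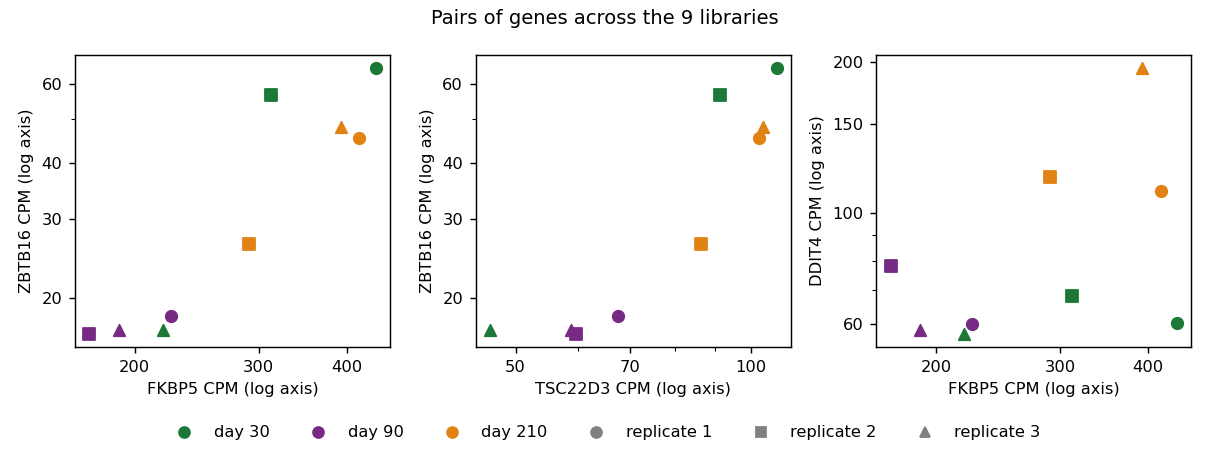
CPM of pairs of genes in the 9 libraries (both axes logarithmic), coloured by age and shaped by replicate number, for FKBP5 with ZBTB16, TSC22D3 with ZBTB16, and FKBP5 with DDIT4. In the first 2 panels the libraries lie along a line with day 30 replicate 3 beside the day 90 libraries, though lower than all of them in TSC22D3. In the third the day 210 libraries lie above the rest.

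Among 9950 tested loci with a single informative description, the one whose log2 CPM was most like FKBP5 over the 9 libraries was alpha-methylacyl-CoA racemase (r = 0.95), followed by ZBTB16 itself (0.92) and a sphingomyelin phosphodiesterase (0.92). TSC22D3 ranked 13th for FKBP5. Most like TSC22D3 were a killer cell lectin-like receptor of subfamily B (0.96), which averaged 13.1, 9.80 and 15.4 FPKM at days 30, 90 and 210, canopy homolog 4 (0.94) and DENN domain-containing protein 5A (0.94). Most like ZBTB16 were APCDD1 (0.97), the ubiquitin ligase RNF139 (0.96) and the axonemal dynein light chain 4 (0.96). These values describe 9 libraries that share ages and depth, and carry no p.

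Most like DDIT4 were G0/G1 switch protein 2 (r = 0.96), gametogenetin-binding protein 2 (0.95) and pappalysin-1 (0.95). For MAOA they were the sushi and pentraxin domain protein SVEP1 (0.95), a fin bud initiation factor homolog (0.94) and heat shock protein beta-1 (0.94). SGK1 was most like NEDD1 (0.97), T-complex protein 1 subunit eta (0.97) and a histone of the H2A family, member V (0.97). Of these loci pappalysin-1 passed the test over all 3 ages (edgeR adjusted p = 0.0264), and at day 90 against day 30 SVEP1 fell by 0.75 (adjusted p = 0.0417) and heat shock protein beta-1 fell by 0.64 (adjusted p = 0.0369). These loci were picked for following DDIT4 or MAOA over the same libraries, so their changes with age are no separate test.

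The FKBP5 locus holds other assembled loci, and since the strand of the libraries is not given, reads of FKBP5 and of loci on the other strand cannot be told apart. It overlapped 6 loci on the minus strand and 1 on the plus strand. The 6 minus-strand loci together held reads equal to 15.7%, 60.6% and 41.7% of the FKBP5 reads at day 30, 48.9%, 101% and 37.5% of them at day 90, and 97.5%, 115% and 82.9% at day 210. This share was higher in all day 210 libraries than in all day 30 libraries, and day 90 overlapped both.

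At day 210 the minus-strand locus MSTRG.11138 rose by 2.05 against day 30 (edgeR adjusted p = 0.00744) and by 1.72 against day 90 (adjusted p = 0.0415), the second call being lost when any library other than day 30 replicates 1 and 2 was left out (adjusted p up to 0.162). MSTRG.11141 rose by 1.66 against day 30 (adjusted p = 0.0432), a call lost when any library other than day 30 replicate 2 and day 90 replicate 2 was left out (adjusted p up to 0.124). FKBP5 itself did not pass in these comparisons. MSTRG.11140 is listed with 0 reads in day 30 replicate 1 and day 90 replicate 3, although MSTRG.11141, which lies inside its span, had 1790 and 1832 reads there. ZBTB16 overlapped 3 plus-strand loci with reads equal to 51.0% to 104.8% of its own at day 30, 113% to 123% at day 90 and 160% to 175% at day 210, so that the ages did not overlap. None of the 3 passed in any comparison of 2 ages, MSTRG.12944 passed the test over all ages (edgeR adjusted p = 0.0434), and the other members overlapped no locus.

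**Figure D4:**
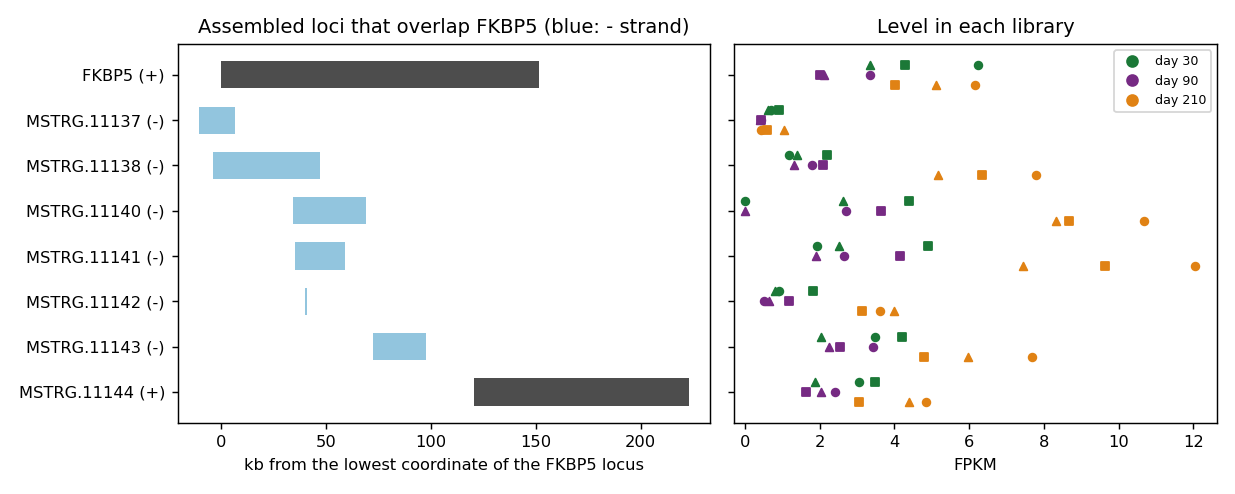
Left, the FKBP5 locus and the 7 assembled loci that overlap it, in kilobases from its lowest coordinate, with minus-strand loci in blue. Right, the FPKM of each locus in the 9 libraries by age and replicate (marker shape); for 5 minus-strand loci the 3 day 210 libraries lie above every other library, while those of FKBP5 overlap day 30.

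A list of other genes known to be raised by glucocorticoids was counted in the same way, and in each comparison most did not pass. Of 34 tested genes of that list, 0 rose and 3 fell at day 90 against day 30, 4 rose and 0 fell at day 210 against day 90, and 5 rose and 1 fell at day 210 against day 30. Of all loci, 2.06% rose and 4.02% fell at day 90 against day 30, 0.348% rose and 0.187% fell at day 210 against day 90, and 2.55% rose and 3.7% fell at day 210 against day 30. By DESeq2, 7 genes of the list fell at day 90 against day 30 and 14 rose at day 210 against day 90. At day 210 against day 30 DESeq2 had 8 that rose and 1 that fell. By limma on log2(FPKM + 1) 5 fell, 5 rose and 3 rose in the same order of comparisons. Of all 19264 loci DESeq2 called 2424, 801 and 2300 in that order, with 891, 503 and 1027 of them higher. Limma called 1720, 122 and 926, with 127, 108 and 212 of them higher. The list's median changes in edgeR were -0.28, 0.36 and 0.16, and 29 of 34 genes were above 0 at day 210 against day 90. Over all tested loci the median change was 0.003, -6.58e-05 and 0.005 in the same comparisons. The list was drawn up with earlier results of these data known, and it holds genes with many other inducers.

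At day 210 DUSP1, a phosphatase that switches off MAP kinases, rose by 1.24 ± 0.16 against day 30 (SE; edgeR adjusted p = 0.00581) and by 1.42 ± 0.16 against day 90 (adjusted p = 0.0188). It measured 10.1, 11.6 and 10.3 FPKM at day 30, 8.28, 8.54 and 7.69 FPKM at day 90, and 26.6, 28.2 and 19.0 FPKM at day 210, where all libraries lay above the rest. Leaving out any 1 day 90 library ended the call against day 90, with an adjusted p of 0.0591 to 0.0758, and no single library ended the call against day 30.

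CD163, the haemoglobin scavenger receptor of red pulp macrophages, rose by 1.04 ± 0.19 against day 30 (SE; adjusted p = 0.0177) and by 1.34 ± 0.19 against day 90 (adjusted p = 0.0272) at day 210. The call against day 30 was lost without day 30 replicate 1 or day 210 replicate 2 (adjusted p of 0.0614 and 0.0563), and that against day 90 without any 1 day 90 library or without day 210 replicate 1 or 2 (adjusted p of 0.0672 to 0.118). It was the only one of 6 measured markers of red pulp macrophages to pass in any comparison of 2 ages.

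CDKN1A, which halts the cell cycle, rose by 1.28 ± 0.26 against day 30 (SE; adjusted p = 0.025) and by 1.60 ± 0.26 against day 90 (adjusted p = 0.0415) at day 210. MERTK, a receptor by which macrophages take up dying cells, rose by 0.55 ± 0.12 against day 30 (adjusted p = 0.0335) and by 0.74 ± 0.12 against day 90 (adjusted p = 0.0415). ZFP36, which destabilises cytokine messages, rose by 0.55 ± 0.13 against day 30 (adjusted p = 0.0397). These calls were less firm: CDKN1A lost its call against day 30 without day 30 replicate 1 or 3 or day 210 replicate 2, with an adjusted p of 0.0602 to 0.085. Its call against day 90 held only when the library left out was day 30 replicate 1 or 2 (otherwise up to 0.144). MERTK kept its call against day 90 only without day 30 replicate 1 or day 210 replicate 3, and that against day 30 only without day 210 replicate 3 (otherwise up to 0.152). ZFP36 kept its call only without day 90 replicate 1 or 3 (otherwise up to 0.129).

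At day 90 against day 30 CRISPLD2 fell by 0.76 (edgeR adjusted p = 0.0188), STOM, a membrane protein abundant in red cells, fell by 0.84 (adjusted p = 0.0338) and TSC22D1, a paralog of TSC22D3, fell by 0.63 (adjusted p = 0.0136). CRISPLD2 lost its call without replicate 1 or 2 of either age (adjusted p up to 0.0633), STOM without those or day 90 replicate 3 (up to 0.112), and TSC22D1 without day 30 replicate 2 or day 90 replicate 1 or 2 (up to 0.0573). In the same comparison 7 of 9 tested erythroid markers fell, and their part in the fall of STOM was not tested. TSC22D1 was also lower at day 210 than at day 30, where it fell by 0.43 (adjusted p = 0.0431, kept only when day 210 replicate 1 was the library left out, and otherwise up to 0.141). Without day 30 replicate 3, 6 of 34 genes fell at day 90 against day 30, the 3 above with KLF9, CEBPD and TXNIP, which were lowest of their age in that library, and 2 rose at day 210 against day 30, while 4 rose at day 210 against day 90. Of all loci 3.64% fell at day 90 against day 30 without day 30 replicate 3. With any 1 day 90 library left out, 0 of the 34 passed at day 210 against day 90. In those fits 11, 7 and 7 of all 19264 loci passed, so a count of 0 says little about the list. Over all single libraries left out 0 to 6 of the list fell at day 90 against day 30 and 1 to 5 rose at day 210 against day 30. In the same fits 280 to 1556 and 342 to 1053 of all loci passed in either direction.

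KLF9, a transcription factor that glucocorticoids induce directly in many tissues, was picked out of the list after its values were seen. It had an order of libraries similar to FKBP5 and ZBTB16, which is no separate test. It measured 19.1, 15.4 and 8.89 FPKM at day 30, 6.66, 6.56 and 7.11 FPKM at day 90, and 16.5, 14.96 and 16.1 FPKM at day 210. On FPKM the day 90 libraries were below all others, and day 30 replicate 3 was the lowest of its age. The share of 16.7% of all loci given above was read on CPM, so it cannot be set beside this order. No such share was counted on FPKM. Its change with all libraries was -0.89 ± 0.27 at day 90 against day 30 (SE; adjusted p = 0.0899) and 1.06 ± 0.27 at day 210 against day 90 (adjusted p = 0.134).

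**Figure D5:**
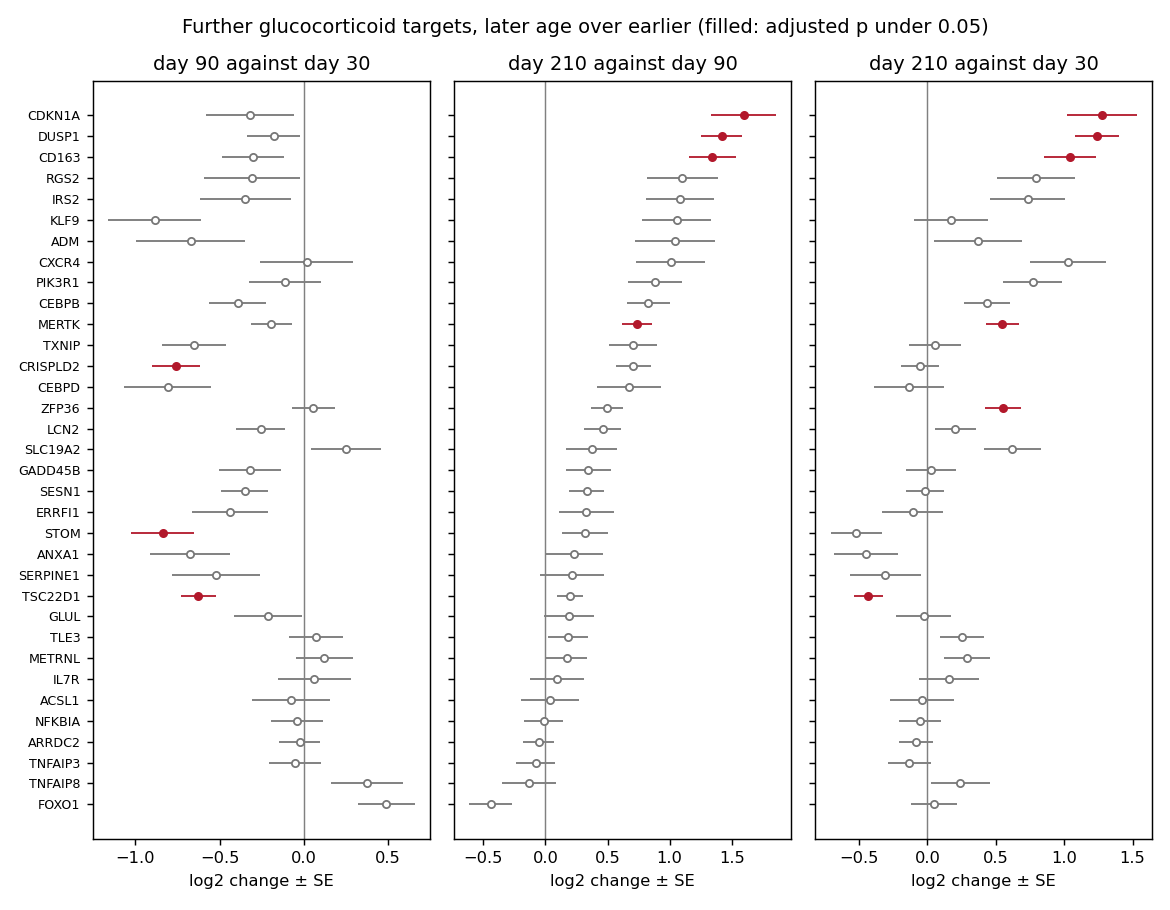
Fitted log2 change ± SE (horizontal axes) of the 34 tested further glucocorticoid targets in the 3 comparisons, later age over earlier, with filled points where the adjusted p was under 0.05. The filled points are 3 below 0 at day 90 against day 30, 4 above 0 at day 210 against day 90, and 5 above and 1 below 0 at day 210 against day 30.

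The receptor's partners and the genes that set hormone supply were counted beside the share of all loci that passed. That share was 6.08% at day 90 against day 30, 0.535% at day 210 against day 90 and 6.24% at day 210 against day 30. In lists of 15 genes or fewer, counts of 0 or 1 are near that share, and nothing is read from them. Of 4 tested genes of hormone supply and receptor type, H6PD, which feeds the cortisol-making reductase in the endoplasmic reticulum, fell by 0.60 at day 210 against day 30 (edgeR adjusted p = 0.0173, lost without day 30 replicate 1 or 2 at 0.0557 and 0.0619), and 0 passed in each of the other comparisons (1 at day 90 against day 30 and 2 at day 210 against day 90 at an unadjusted p under 0.05, with 1 and 0 called by DESeq2 and by limma). Of 15 chaperones and coregulators 0 passed in each comparison, with 2, 3 and 2 at an unadjusted p under 0.05. DESeq2 called 2, 2 and 1 of these 15 and limma 1, 1 and 0, in the order day 90 against day 30, day 210 against day 90 and day 210 against day 30. Of all 19264 loci DESeq2 called 2424, 801 and 2300 and limma 1720, 122 and 926, in the same order. The 15 include FKBP5 itself. It was among the genes called by DESeq2, and among those with an unadjusted p under 0.05, at day 90 against day 30 and at day 210 against day 90.

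Of 19 tested paralogs of the 6 genes, 3 fell at day 90 against day 30 and at day 210 against day 30, and 0 passed at day 210 against day 90 (3 at an unadjusted p under 0.05, and 0 by DESeq2 and limma). Of all loci 4.02% fell at day 90 against day 30, 3.7% fell at day 210 against day 30 and 0.535% passed at day 210 against day 90. FKBP10, an isomerase of the endoplasmic reticulum that folds collagen, fell by 1.33 at day 210 against day 30 (edgeR adjusted p = 0.00495) and by 1.11 at day 90 against day 30 (adjusted p = 0.0094). FKBP9 fell by 1.11 at day 210 (adjusted p = 0.00787) and by 1.15 at day 90 against day 30 (adjusted p = 0.00867). Fibroblast and matrix markers summed to 96.3 to 133 FPKM at day 30, 29.3 to 48.7 FPKM at day 90 and 27.9 to 59.3 FPKM at day 210, and their part in both falls was not tested.

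Of 11 tested genes of the mTOR pathway in which DDIT4 acts, DEPTOR, an inhibitor of mTOR, fell by 0.43 at day 90 against day 30 (edgeR adjusted p = 0.0431, lost without day 30 replicate 1 or 2, any day 90 library or day 210 replicate 2, at up to 0.153), and 0 passed in each of the other comparisons, where 1 had an unadjusted p under 0.05 and DESeq2 and limma called 0. Of all loci 4.02% fell at day 90 against day 30, and 0.535% and 6.24% passed at day 210 against day 90 and against day 30. Of 9 tested genes that glucocorticoids are known to repress, the inflammatory cytokine TNF fell by 0.93 at day 210 against day 30 (adjusted p = 0.0326). FOS, a subunit of AP-1 and an immediate early gene, rose by 1.94 at day 210 against day 30 (adjusted p = 0.0242) and by 2.25 against day 90 (adjusted p = 0.0479). Of all loci 2.55% rose and 3.7% fell at day 210 against day 30, and 0.348% rose at day 210 against day 90. The TNF call was lost without day 30 replicate 1 or 2, day 90 replicate 2 or day 210 replicate 2 or 3 (adjusted p up to 0.104). The FOS call against day 30 was lost without day 30 replicate 1 or 3 or day 210 replicate 2 (up to 0.0784), and that against day 90 without day 30 replicate 3, any day 90 library or day 210 replicate 1 or 2 (up to 0.178).

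Circular RNAs inside the members' loci were sparse. Of 18908 circular RNAs with back-splice junction reads, 3 lay inside the FKBP5 locus, with 5 reads in all, and 4 inside the MAOA locus, with 8 reads, each in at most 2 libraries. Of the 5 reads in the FKBP5 locus 2 belong to a circular RNA on the minus strand, opposite to FKBP5. None reached the 4 libraries needed for a test, and with no such minimum 0 of 7 passed in edgeR's test, the smallest unadjusted p being 0.174. No circular RNA was seen inside the other members.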

How the data were processed

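Total RNA of 9 spleen samples was extracted with Trizol and sequenced as paired ends, per the labels' protocols, which name selection of poly(A) RNA but also a poly(A)- fraction. Per the submitters' processing notes HISAT2 2.0, StringTie 1.3.0 and Bowtie 0.12.2 were used. The notes name a mouse build, whereas the table's descriptions are of pig genes, and no member lay within 1 Mb of its place in the pig annotation used for names, so coordinates are the authors' own, on a build not given in the sources used here. Strand, counting tool and circular RNA caller are likewise not given. The authors deposited raw read counts and FPKM per locus. For circular RNAs they deposited back-splice junction read counts and a normalised signal (SRPBM), the signal not being used here.

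Loci were fitted with edgeR 4.0.16 (R 4.3.3) by quasi-likelihood on the deposited counts, with TMM factors of 0.937 to 1.073, 1 mean per age and all 9 libraries in the fit, two-sided. The other settings tried were RLE factors, DESeq2 1.42.0, limma 3.58.1 on log2(FPKM + 1) and log2(FPKM + 0.1), no filter, filterByExpr, only the 2 ages compared, a replicate block and each library left out. The SE is the change over the square root of F. The pipeline was tested on simulated counts. Correlations used exact permutations of the libraries on log2 CPM with a prior count of 2. Precision is limited by 3 libraries per age, and reads are not independent molecules. Libraries of an age differed in counts far beyond sampling noise (mean chi-square per locus of 81.3 to 266), so none was a copy.

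Symbols were joined to loci through descriptions: 107 of 121 list symbols and 57 of 72 marker symbols matched. Named genes were all members, for each list the 4 smallest p in the any-age test and those past the threshold up to 8, and the 3 loci most like each member; part of them is printed, and KLF9 was singled out after its values were seen, as was the count of the further targets without day 30 replicate 3. The members and lists were chosen with earlier results of these data known. Replicate numbers did not pair the libraries: over 9 pairs of same-numbered libraries of different ages the correlation of deviations was -0.0688 to 0.0985. No genome or sequence table was used here, so no sequence is shown.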

Additional observations from a re-analysis of the deposited data

How the results depend on the processing

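Over 306 alternatives for the 18 changes of the 6 genes, 278 kept direction and side of the threshold, 15 passed where the reported value did not, 2 no longer passed and 11 turned in sign. Sign turned, always for changes that had not passed, for DDIT4 at day 90 against day 30 (-0.069 without day 90 replicate 2, -0.12 and -0.13 by limma with pseudocounts 1 and 0.1), for SGK1 there (-0.013 without day 30 replicate 3, -0.10 and -0.11 by limma), and at day 210 against day 30 for FKBP5 (-0.037) and TSC22D3 (-0.031) without day 30 replicate 3, for ZBTB16 (0.12 without day 30 replicate 1, 0.016 without day 210 replicate 2) and for MAOA (0.00192 without day 30 replicate 2). The cause was not tested. With 1 library left out the changes of these genes lay between -0.069 and 0.16 for DDIT4, -0.013 and 0.18 for SGK1, -0.037 and 0.46 for FKBP5, -0.031 and 0.50 for TSC22D3, -0.61 and 0.12 for ZBTB16, and -0.38 and 0.00192 for MAOA. Counts below are in the order day 90 against day 30, day 210 against day 90, day 210 against day 30 and any age. With all libraries 1171, 103, 1203 and 1471 loci passed. DESeq2 called 2424, 801, 2300 and 3324 loci. Without a filter on low values 66 loci passed at day 210 against day 90. With only the 2 ages compared 499 passed at day 210 against day 30, and by limma with pseudocount 0.1 it was 770. Leaving out 1 library gave 280 to 1556, 7 to 139, 342 to 1053 and 493 to 1671 loci. Of the 6 genes, 0, 0, 1 and 1 passed with all libraries, and 0 to 3, 0 to 0, 0 to 1 and 1 to 4 with 1 library left out. DESeq2 called 3 at day 90 against day 30, 3 at day 210 against day 90 and 4 for any age. Limma called 1 at day 90 against day 30 and 1 at day 210 against day 90 with either pseudocount, and 1 passed at day 90 against day 30 with only those ages in the fit. A replicate block (the replicate number as a term) gave 582, 43, 531 and 651 loci and left the calls of the 6 genes at 0, 0, 1 and 1; 3 of 9 libraries correlated best with their own number. On log2(FPKM + 1) the median of all loci moved by -0.148 at day 90 against day 30 and by 0.108 at day 210 against day 90, and the share of higher calls was 7.38%, 88.5% and 22.9% in the 3 comparisons, against 33.8%, 65.1% and 40.8% in edgeR. Summing loci per name changed nothing, since each name had 1 locus. Depth limits MT1D and the circular RNAs.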

Other observations

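GLCCI1, annotated as glucocorticoid-induced transcript 1 and outside the rule by which genes were chosen, was picked out after its values were seen. Its locus, MSTRG.12607, spans 60408077 to 60606650 of chromosome 9 on the minus strand in the authors' coordinates. GLCCI1 measured 1.51, 1.61 and 1.94 FPKM at day 30, 3.43, 2.42 and 2.35 FPKM at day 90, and 2.49, 2.60 and 2.26 FPKM at day 210. All libraries of days 90 and 210 lay above those of day 30, an order of ages unlike that of FKBP5, TSC22D3 and ZBTB16. It rose by 0.89 ± 0.11 at day 90 against day 30 (SE; edgeR quasi-likelihood adjusted p = 0.00782, at most 0.0333 with any 1 library left out). At day 210 against day 30 it rose by 0.59 ± 0.11 (adjusted p = 0.0181), a call lost without day 30 replicate 1 or 2 or day 210 replicate 2, with an adjusted p of 0.0584 to 0.0658. At day 210 against day 90 the change was -0.30 (adjusted p = 0.253).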
